A study of Mus musculus with 4 samples.

Results

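The erythroid-committed progenitors described here were 229 of 33042 stem and progenitor cells from mouse bone marrow. They were picked by their transcripts: a cell entered the set when at least 1 unique molecular identifier (UMI, the tag that marks 1 captured transcript) was counted for at least 3 of 7 red-cell genes, Klf1, Ermap, Rhd, Rhag, Car1, Aqp1 and Blvrb, and Klf1 or Ermap was among them. Cells entered the count with at least 1000 detected genes, at most 10% mitochondrial UMIs, and a top hashtag of at least 10 UMIs that was at least 3 times the next. The set made up 0.693% of cells and 2.01% of UMIs, with a median UMI count per cell 3.53 times that of the others.

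All cells came from 2 male mice of 3 months that carried Tppp3CreER and LSLTdTomato, in which a Cre recombinase driven by Tppp3 and switched on by tamoxifen turns on a red fluorescent reporter. Both mice had received tamoxifen, first at postnatal day 0 and last at postnatal day 3. Marrow from femur, tibia, pelvis, sternum and column was lysed of red cells, enriched on CD117 beads and sorted as Lin-Sca+Kit+, and reporter-positive and reporter-negative cells of each mouse carried separate antibody hashtags, giving 4 fractions. By the labels, positive cells of both mice were sorted into the same tube and negative cells of both mice into another. The gate can therefore not be told apart from the sort tube. The cells were run on 2 versions of 10x 3′ chemistry, GEM-X and v3.1. The reporter-negative cells served as the comparison within each mouse. They carried the same alleles and had met the same tamoxifen, so they were not untreated cells, and with 2 mice every p-value below measures only the spread between these few fractions.

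Red blood cells arise from multipotent progenitors that pass through states shared with megakaryocytes before they settle on the erythroid path. GATA1 replaces GATA2 at many sites as they do so, and KLF1 then drives genes for haem, globin, blood group antigens and the membrane skeleton while restraining megakaryocyte genes. Committed erythroid progenitors usually lose surface Sca-1, so few are caught by a Lin-Sca+Kit+ gate, and they divide fast before the globin genes reach full output.

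The 4 rule genes with a GATA-like match close to their start are shown because the set was chosen on them. The RefSeq promoter table of build GRCm38.p6 held 6 of the 7 rule genes, and Car1 was not among them. The stretches end before the most upstream annotated start, are written along the gene's own strand, and carry in capitals each match on either strand to the motif AGATAA, to its variant AGATAG, or to the forms TGATAA and likewise TGATAG, which GATA factors are known to bind. They lie at chr8:84901882-84901927 (plus strand) for Klf1, at chr4:119190012-119190095 (minus strand) for Ermap, at chr4:134864436-134864535 (plus strand) for Rhd and at chr17:40811049-40811125 (plus strand) for Rhag.
Klf1: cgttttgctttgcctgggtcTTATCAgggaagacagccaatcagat
Ermap: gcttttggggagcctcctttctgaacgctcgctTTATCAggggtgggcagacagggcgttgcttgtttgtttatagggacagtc
Rhd: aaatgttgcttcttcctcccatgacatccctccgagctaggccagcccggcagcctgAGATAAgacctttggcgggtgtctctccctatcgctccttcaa
Rhag: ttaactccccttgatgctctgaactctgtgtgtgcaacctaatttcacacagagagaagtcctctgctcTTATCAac
The match began 80 bases before the RefSeq start in Klf1, 67 in Ermap, 43 in Rhd and 31 in Rhag. A match within 100 bases was held by 4 of 6 rule genes (66.7%), against 10.6% of the 27025 genes in the table, and the 100-base window was chosen after the matches were seen. Within 250 bases, 27.1% of all genes had such a match. Aqp1 and Blvrb had none there, but held 3 and 4 matches to CCNCNCCC, the motif bound by KLF factors, which 45.6% of all genes held within 250 bases on either strand. Among the 52 genes of the erythroid lists that were at least 2-fold higher in the set, 39 were in the table; 8 of them (20.5%) had the GATA-like match within 100 bases and 23 (59.0%) the KLF match, which 31.4% of all genes held at that distance. Overlapping matches were counted as they fell, and a match describes letters, not binding.

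The 2 matrices held 20511 barcodes (234563105 gene UMIs, GEM-X) and 17755 barcodes (178214937, v3.1), and no barcode occurred in both. Of these, 18294 and 14748 cells were kept, with medians of 9290.5 and 7626.5 UMIs. Scrublet, a doublet caller, set no usable threshold of its own. The top 5% of its scores in each chemistry were therefore called; this took 12 of 130 set cells in GEM-X and 6 of 99 in v3.1, and it found 33.1% and 27.0% of the cells with a second hashtag. Free RNA was gauged in 226 B-lineage cells (median 9412 UMIs, against 30291 in the set): Klf1 had a UMI in 0.442% of them and Ermap in 0.442%, against 95.2% and 83.0% of the set. Cells that met the rule had been left out of the B-lineage cells beforehand, which can by itself lower their shares for Klf1 and Ermap. Blvrb had a UMI in 27.4% of B-lineage cells and 23.5% of all other cells, so by itself it did not separate the set.

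The set was not uniform in how many of the 7 genes a cell showed. Exactly 3 were detected in 33 cells, 4 in 16, 5 in 15, 6 in 23 and all 7 in 142 (62.0%). Klf1 and Ermap were both detected in 179 cells, Klf1 alone of the pair in 39 and Ermap alone in 11. Just outside the rule lay 20 cells with 3 or more rule genes but neither Klf1 nor Ermap, and 535 cells with 2 rule genes. Of the remaining cells, 8219 showed 1 rule gene and 24039 none. The median depth was 11376 UMIs at 3 rule genes, 11911 at 4, 9951 at 5, 24556 at 6 and 36712.5 at 7, beside 12488 in other cells with 2. Since more UMIs also make a gene easier to detect, rule genes were also counted with every cell thinned to 5000 UMIs, which left out 5 set cells and 3464 others; values below are unthinned unless they are said to be thinned. Shares of cells with a UMI fell with thinning (Klf1 to 63.8% of the 224 set cells kept and 0.405% of other cells).

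**Figure D1:**
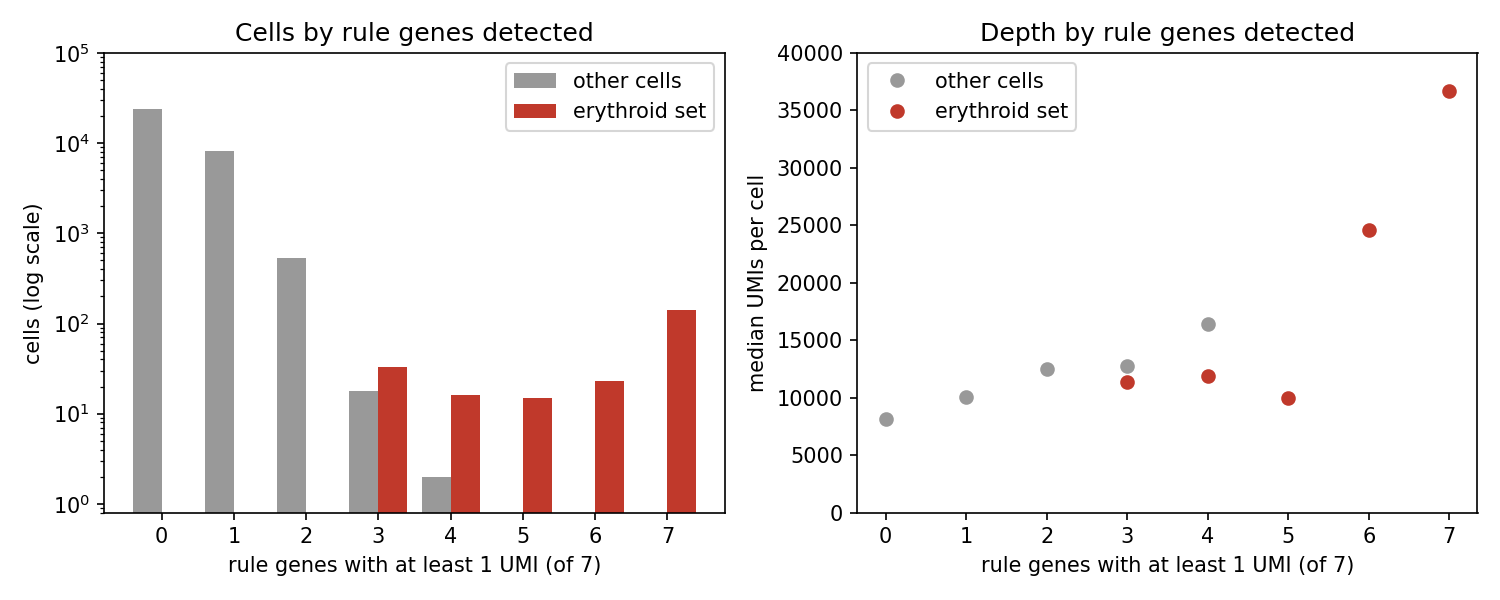
Left, cells (log scale) by the number of the 7 rule genes with at least 1 UMI, for the set and for all other cells; right, median UMIs per cell at each number. The set holds 142 cells with all 7 genes, and their median of 36712.5 UMIs is above every other point.

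In every fraction the rule genes stood far above the other cells, which follows from the rule and is given as description. Levels are CPM, UMIs of a gene scaled to a common library total and summed over the cells of a fraction, in the order mouse 1 positive, mouse 1 negative, mouse 2 positive, mouse 2 negative, so deep cells weigh most. CPM in these 3′ libraries is compared between cells, not between genes. Klf1 (chr8:84901928-84905291, plus strand), the transcription factor named above, was at 227, 206, 221 and 269 CPM, against 0.705 to 1.13 in other cells. Car1 (chr3:14766216-14808368, minus strand), a carbonic anhydrase made early in the lineage, was at 2940, 2883, 3225 and 3582 CPM, against 1.51 to 2.67. Ermap (chr4:119175457-119190011, minus strand), which carries the Scianna blood group, was at 353, 321, 320 and 483 CPM, and Rhd (chr4:134864536-134896172, plus strand), the Rh antigen, at 215, 196, 175 and 261. The fractions were close to one another, with the highest value of Klf1, Ermap, Rhd and Car1 in mouse 2 negative. The set held 98.1% of all Ermap UMIs of the kept cells (95% exact binomial interval 97.5 to 98.6), 96.8% of Car1, 91.6% of Rhd, 87.6% of Rhag, 86.3% of Klf1, 64.7% of Aqp1 and 38.2% of Blvrb. These intervals cover counting error only. The 4 markers named for this cell type, Klf1, Car1, Ermap and Rhd, are all rule genes, so genes outside the rule bear on the name.

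A gene was counted as higher or lower when at least 2-fold apart from the other cells, in the same direction, in all 4 fractions. It also needed a mean of at least 10 CPM on one side. No test applies, because the cells were chosen on this contrast. Of 9684 genes, 437 were higher (4.51%) and 1436 lower (14.8%), with a median log2 ratio over all of them of -0.23. The 7 rule genes are among the 437.

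Among 26 erythroid transcription factors, 5 were higher, 3 lower and 18 neither, with a median log2 ratio of 0.27. Gata1, the master regulator of the lineage, was at 159, 171, 193 and 189 CPM, against 5.43 to 7.29 in other cells, a log2 ratio of 4.84 ± 0.13 (SD over 4 fractions). All 4 values sat above every value of the other cells. Gata1 had a UMI in 89.5% of set cells and in 3.66% of other cells, and in 0 of 226 B-lineage cells, which allows up to 1.33%. Gfi1b, a repressor needed for red cells and platelets, had a log2 ratio of 2.93 ± 0.25, Hemgn, a GATA1 target, 2.08 ± 0.09, E2f4 1.75 ± 0.20 and Zfpm1, the GATA1 cofactor FOG1, 1.49 ± 0.28. The 3 that were lower were Spi1, which encodes the myeloid factor PU.1 (-2.88 ± 1.06), Fli1, a megakaryocyte and stem cell factor (-2.38 ± 1.16), and Lyl1 (-1.28 ± 0.20). Gata2 was at 57.1, 52.2, 90.2 and 21.4 CPM against 59.5 to 101, so only mouse 2 negative lay far below the other cells.

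The receptor and the iron and haem genes differed from one another in reach. In erythropoietin signalling, 1 of 10 genes was higher and 3 were lower. The higher gene was Epor, the erythropoietin receptor, at 67.5, 57.6, 38.7 and 79.0 CPM against 0.923 to 1.49 (log2 ratio 5.60 ± 0.67), and the set held 56.2% of its UMIs. The lower genes were Pim1 (-2.82 ± 0.55), Csf2rb (-2.78 ± 1.22) and Sh2b3 (-1.54 ± 0.48). Pim1 is a kinase induced by cytokine signals. Jak2, the kinase bound to the receptor, was level with other cells at -0.14 ± 0.16, and Stat5a at 0.18 ± 0.26.

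In the haem list, 10 of 16 genes were higher and none lower, with a median log2 ratio of 1.93. Cpox, the coproporphyrinogen oxidase, was at 287, 253, 258 and 354 CPM against 19.5 to 20.5 (3.83 ± 0.23). All 4 fractions lay at least 2-fold above the other cells. Alad, Urod, Uros and Fech, which catalyse other steps, had log2 ratios of 2.60, 2.14, 1.90 and 1.96, and Tmem14c, a mitochondrial porphyrin carrier, 2.42 ± 0.38. The erythroid form of the first enzyme, Alas2, was nearly absent at 1.73, 4.43, 0 and 1.92 CPM, and Alas1, the form made in all tissues, had a log2 ratio of -1.03 ± 0.68 that did not pass the fold in every fraction.

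Of 13 iron genes, 6 were higher and 1 lower. Tfrc, the transferrin receptor, was at 170, 181, 173 and 254.9 CPM against 28.3 to 32.2 (2.67 ± 0.34). Slc40a1, the iron exporter ferroportin, was at 55.4, 52.7, 53.4 and 69.7 against 1.43 to 2.11 (5.11 ± 0.07). Both receptor and exporter were thus well above other cells in all 4 fractions. Steap3 (3.14 ± 0.29), a ferrireductase, Slc11a2 (3.00 ± 0.11), an iron transporter, Tfr2 (1.34 ± 0.22) and the ferritin chain Fth1 (1.13 ± 0.20) were the other higher genes. Ncoa4, the receptor that delivers ferritin for breakdown, was the 1 lower gene at -1.59 ± 0.34.

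Membrane and cytoskeleton genes were higher in 13 of 21 cases and lower in 2, with a median log2 ratio of 3.36. Ank1, erythroid ankyrin, was at 158, 189, 158 and 239 CPM against 0.745 to 1.30 (7.46 ± 0.26). Add2, an adducin, had a log2 ratio of 10.42 ± 1.14, Kel, the Kell antigen, 8.30 ± 0.60 and Sptb, erythroid beta spectrin, 8.05 ± 0.46. Sptbn1, the beta spectrin of most other cells, stood opposite to Sptb, at -3.27 ± 1.31. Slc4a1, the anion exchanger band 3 of mature red cells, was at 0, 12.8, 0 and 1.92 CPM, so it was not detected in either positive fraction. Embryonic globins (Hba-x, Hbb-bh1, Hbb-bh2 and Hbb-y) were at 0 UMIs in the set.

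Adult globins were uneven. Hbb-bs (chr7:103826534-103828096, minus strand), an adult beta-globin gene, was at 142, 628, 51.5 and 188 CPM, and Hba-a1 at 109, 329, 66.3 and 114. The pairs Hba-a1 with Hba-a2 and Hbb-bs with Hbb-bt are near-identical, so the split between them is uncertain. Hbb-bs was found in 91 of 229 cells (39.7%), against 0.661% of other cells and 0.442% of B-lineage cells. In mouse 1 negative, 1 of the 73 cells held 482 of the 1275 Hbb-bs UMIs.

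A further list of early erythroid genes had 13 of 21 members higher and 2 lower, with a median log2 ratio of 2.47. Smim1, the Vel blood group antigen, was at 140, 125, 155 and 184 CPM against 1.18 to 1.51 (6.88 ± 0.16). Sphk1, sphingosine kinase, was at 135, 107, 92.0 and 165 against 0.024 to 0.0871, and the set held 98.2% of its UMIs. Car2 (2.47 ± 0.18) and the metallothioneins Mt1 (5.59 ± 0.61) and Mt2 (9.51 ± 0.74) were higher as well. Pklr, the red cell and liver pyruvate kinase, was at 81.4, 65.0, 58.9 and 79.3 CPM in the set and listed at 0 to 0.042 in other cells. Pkm, the pyruvate kinase of most dividing cells, was at 48.5, 75.9, 44.2 and 15.6 against 251 to 300 (-2.77 ± 0.88). The pair therefore pointed opposite ways in all 4 fractions. Cnrip1, also on that list, was 1 of the 2 lower genes.

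Among named genes outside the rule and the globins, ranked by the smallest ratio over the 4 fractions, the first was Slc25a21 (chr12:56712634-57197472, minus strand), a mitochondrial carrier of oxodicarboxylates, at 1278, 1277, 1014 and 1316 CPM against 0.552 to 0.954 (10.79 ± 0.26). Cldn13, a claudin, was at 149, 134, 125 and 227 against 0.0481 to 0.116 (11.14 ± 0.78). Ratios for both were of the size seen for rule genes. Further genes in the same ranking were Pklr, Cldn13, Sphk1, Add2, Slc38a5, Mst1r, Slc26a1, Mt2, Atp1b2, Sh3tc2, Tspo2, Asb17os and Gpc4. Genes most strongly lower included Serpinf1, S100a8, S100a9, Vldlr, Crispld1, Hlf, Tox, Hoxa3 and Tcf7l2.

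**Figure D2:**
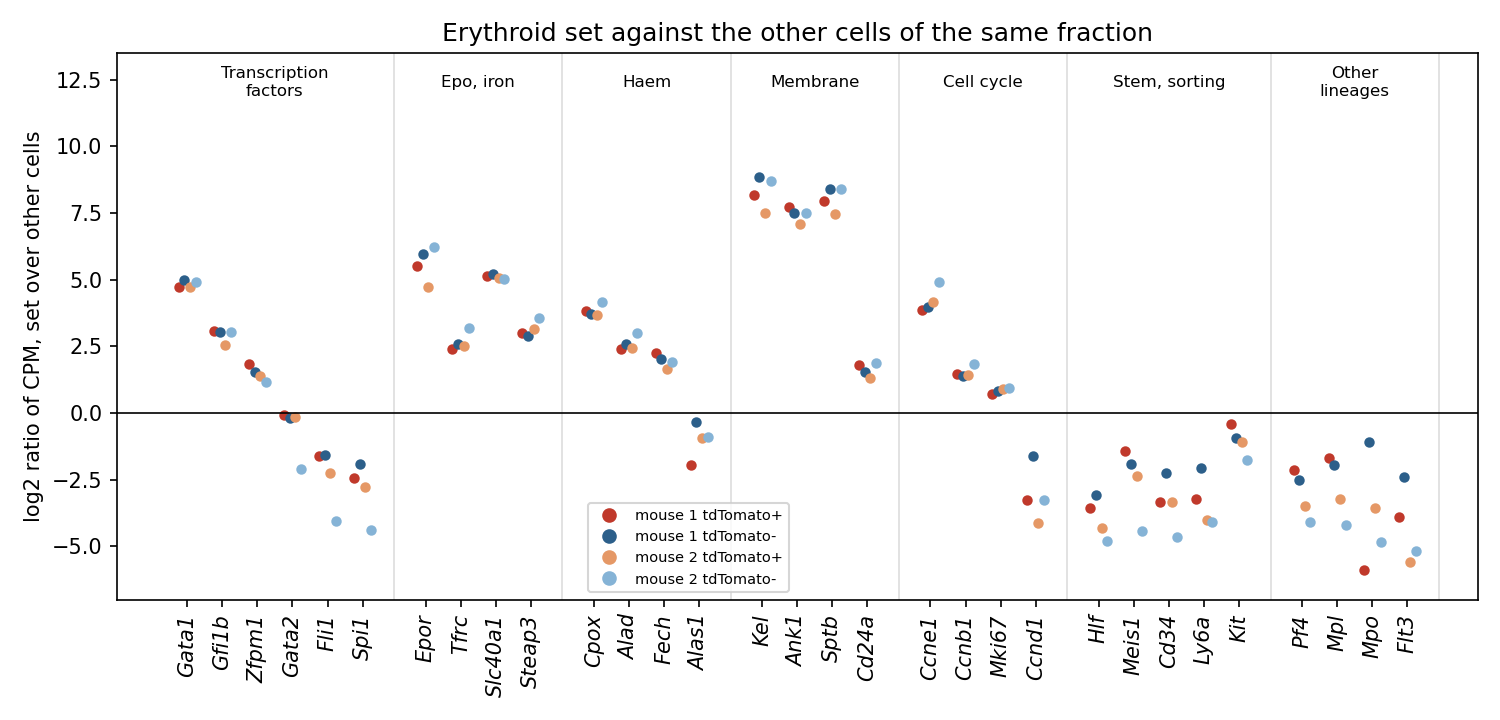
Log2 ratio of CPM in the set over the other cells of the same fraction (y axis) for genes grouped by role; each point is 1 of the 4 fractions. Gata1, Epor, Cpox and Kel lie above 0 in all 4, and Spi1, Hlf, Cd34 and Mpo below 0 in all 4.

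Summed markers of megakaryocytes, granulocytes and monocytes, lymphoid cells, B cells and macrophages were lower in the set than in other cells, and those of mast cells and basophils overlapped. The summed megakaryocyte list lay at 75.7 to 348 CPM in the set, against 822 to 899 in other cells, with 5 of 9 counted members lower and none higher; Gp6, Thbs1 and Clec1b were at 0. Granulocyte and monocyte markers summed to 454 to 1117 CPM against 1549 to 3420 (8 of 12 lower), lymphoid markers to 19.8 to 174 against 596 to 937 (6 of 6 lower), and B cell markers to 3.57 to 42.4 against 92.1 to 155. Macrophage markers summed to 0 to 5.42 CPM against 11.2 to 15.1, so transcripts of the nurse cells of erythroblastic islands were scarce. Mast and basophil markers summed to 34.0 to 57.6 CPM against 51.2 to 65.5. Of these 12 genes, 5 had no UMI in the set, and of the 2 counted, 1 was higher and none lower. Il1rl1, the receptor of IL-33, was the higher one at 43.3, 34.0, 38.7 and 31.8 CPM against 0.697 to 1.11 (5.46 ± 0.24). Mouse 1 negative stood apart: Mpo, a granule enzyme, was at 230 CPM there and at 13.9, 29.4 and 12.3 in the others, with Elane at 82.3 against 1.73, 0 and 5.76. Without Scrublet calls, 62 of 73 set cells remained in mouse 1 negative. In mouse 1 positive 23 of 23 remained, in mouse 2 positive 20 of 24 and in mouse 2 negative 106 of 109. The part of doublets in these Mpo and Elane values was not tested.

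The sort and the transcripts did not match evenly. Ly6a, which encodes Sca-1, was at 6.93, 15.8, 3.68 and 3.57 CPM, against 58.9 to 66.2 in other cells (-3.35 ± 0.94), and a UMI was found in 15.3% of set cells, 37.9% of other cells and 23.0% of B-lineage cells. After thinning the shares were 4.91%, 25.6% and 15%. Kit was at 215, 158, 175 and 112 CPM against 287 to 380 (-1.05 ± 0.56), with a UMI in 88.6% of set cells. Sca-1 protein was gated on in the sort, so transcript levels below other cells are a measurement of RNA only. Cd34 (-3.40 ± 0.97) and Ptprc, the CD45 antigen (-2.24 ± 0.80), were lower, and Cd55 higher (2.13 ± 0.09). Of 14 stem cell genes, 9 were lower and none higher, with a median log2 ratio of -2.63, Meis1 at -2.53 ± 1.31, Mecom at -3.71 ± 1.46 and Hlf at -3.93 ± 0.76.

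Most cell cycle genes of these phases did not pass the 2-fold rule. Of 20 genes of G1 and S phase, 3 were higher, and of 22 of G2 and M phase, 6 were higher; none was lower in either list. Ccne1, cyclin E1, was at 86.6, 90.7, 90.2 and 151 CPM against 4.98 to 5.99 (4.23 ± 0.48), which was the largest cell cycle ratio named here. Mki67 was at 748, 759, 825 and 801 against 418 to 459 (0.84 ± 0.10), below the fold but above all other values. Ccnb1 (1.52 ± 0.21), Rrm2 (1.86 ± 0.46), Cks2 (1.56 ± 0.23) and Ube2c (1.40 ± 0.34) passed. In a separate list of 10 cell cycle inhibitors and their partners, Ccnd1, cyclin D1, was the 1 lower gene (-3.07 ± 1.06). When other cells were weighted to the depth of the set, Ube2c turned to -0.24. Of 14 genes of Myc and ribosome biogenesis, 1 was higher, Nolc1 (1.46 ± 0.25), and 1 lower, Mycn (-3.41 ± 1.24), and the list's median was 0.79. Of 16 glycolysis genes, 1 was higher and 3 lower, and the 13 mitochondrially encoded genes had a median log2 ratio of 0.0036, none past the fold. Ly6a, Pf4, Ccne1, Ccnb1, Rrm2, Ccnd1 and Pkm were singled out after their values were seen.

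Within the set, the number of rule genes separated cells with stem and megakaryocyte transcripts from cells with more erythroid transcripts. This too is the rule's own measure, so the values are description. Between cells with all 7 and cells with 3 or 4 rule genes, 144 of 9359 genes were at least 2-fold higher in all 4 fractions (1.54%) and 548 lower (5.86%). The 7 rule genes are among the 144. Levels are given for cells with 3, 4, 5 or 6, and 7 rule genes, pooled over fractions. Tfrc was at 16.0, 31.6, 126 and 254 CPM, Ank1 at 11.4, 15.8, 122 and 245, Slc40a1 at 2.28, 15.8, 39.8 and 71.5, and Epor at 9.12, 10.5, 37.1 and 79.4. These 4 genes had their lowest level in cells with 3 rule genes and their highest in cells with 7. Gata1 changed less, from 103 at 3 rule genes to 189, 144 and 193.

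Of 12 stem cell genes, 7 were lower in cells with 7 than with 3 or 4 rule genes and none higher, and of 10 megakaryocyte genes, 4 were lower and none higher. Gata2, highest at 4 rule genes, was at 182, 284, 92.0 and 12 CPM, Fli1 at 531, 242, 93.3 and 22.2, Meis1 at 919, 547, 178 and 33.8, Itga2b, the CD41 integrin, at 98.0, 68.4, 12.4 and 3.31, and Pf4 at 47.9, 5.26, 1.37 and 0.919. The log2 difference of 7 against 3 or 4 rule genes was -3.96 ± 0.43 for Gata2 (SD over 4 fractions), -4.55 ± 1.75 for Fli1 and -4.37 ± 1.06 for Meis1. Cells with 3 rule genes held Meis1 within the range of the other cells (718 to 927 CPM) and Itga2b above it (23.9 to 37.7). So for the 49 cells with 3 or 4 rule genes the name committed is not borne out by these genes, and they are called by their number of rule genes below. With rule genes counted after thinning, Gata2 was at 190, 66.4 and 14.4 CPM in cells with at most 2, with 3 or 4 and with 5 or more, Meis1 at 800, 187 and 23.7, and Tfrc at 36.2, 142 and 262. In the same order Epor was at 14.5, 40.1 and 82.9, Ank1 at 21.7, 119 and 259, and Fli1 at 452, 99.9 and 16.1. These 6 genes thus kept the direction they had between the fewest and the most rule genes. Only the count of rule genes was thinned, and the levels come from all UMIs. The groups still differed in median depth, at 14005, 20812 and 35537.5 UMIs.

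Cell cycle genes did not all follow. Ccne1 was highest at 7 rule genes, at 11.4, 31.6, 54.9 and 144 CPM, and Cdk6, a G1 kinase, lowest, at 1551, 1652, 1034 and 510. Mki67 had no order, at 819, 584, 578 and 818, and Ccnb1 was at 50.2, 26.3, 52.2 and 106. Kit went from 299 to 247, 247 and 108 CPM. Outside the lists, Slc25a21 was at 22.8, 132, 1074 and 1445 CPM, and Nfia, a nuclear factor, was at 107, 94.7, 511 and 745. Med12l, at 296, 105, 22.0 and 3.86, was lowest in cells with 7.

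**Figure D3:**
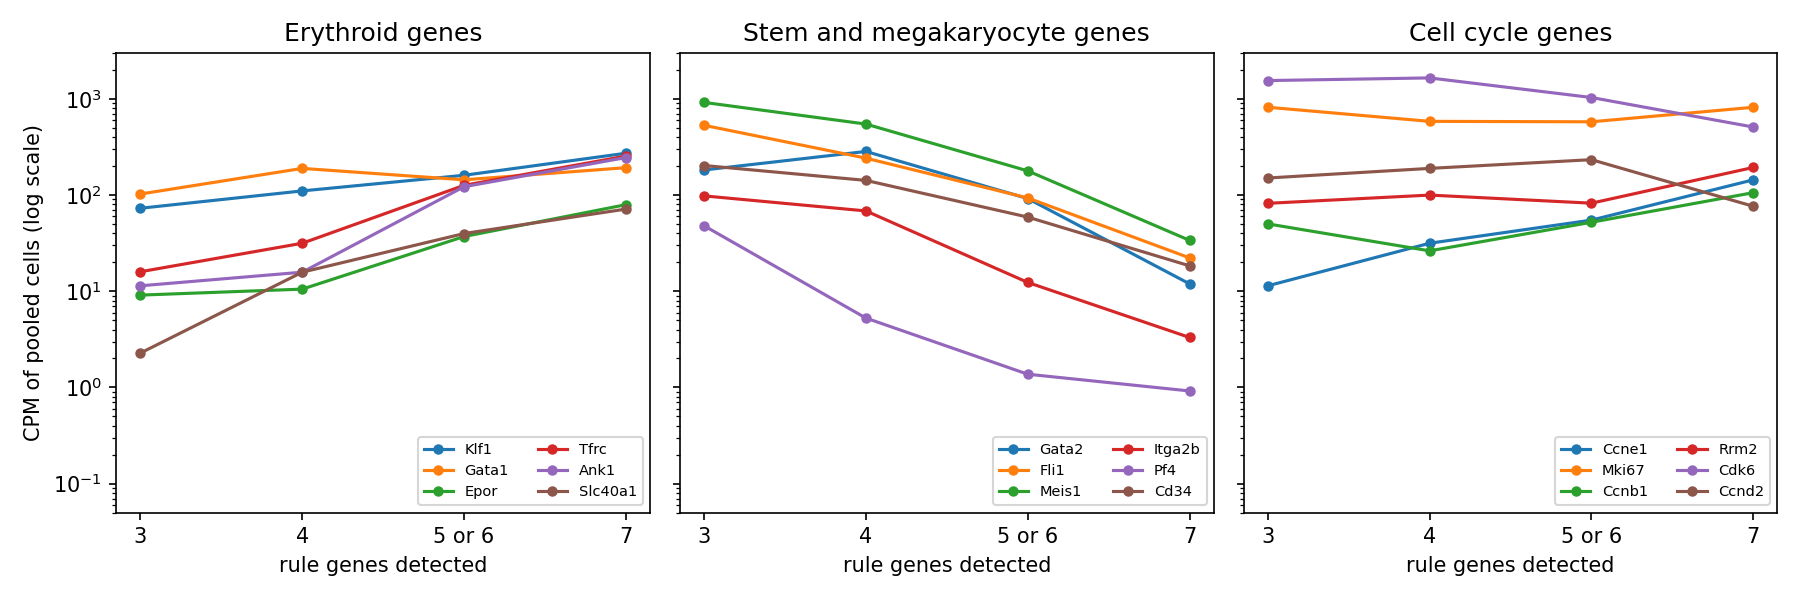
CPM of pooled cells (log scale) against the number of rule genes detected, for 6 erythroid, 6 stem and megakaryocyte and 6 cell cycle genes. Tfrc reaches 254 CPM at 7 rule genes from 16.0 at 3, Meis1 reaches 33.8 from 919, and Mki67 stays between 578 and 819.

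The 2 other sets, defined by their own markers after the data were seen, place these levels; no test was made, since markers chose all of them. A megakaryocyte set of 1109 cells had Gata1 at 50.5 ± 4.72 CPM (SD, n = 4 fractions), against 178 ± 15.9 in the erythroid set. Gata2 was at 200 ± 36.9 there and Fli1 at 709 ± 68.6, against 55.2 ± 28.2 and 90.8 ± 46.6. A granulocyte set of 537 cells had Klf1 at 0.591 ± 1.18 and Mt1 at 105 ± 23.1, against 231 ± 27.1 and 436 ± 68.8. Ccne1 was at 105 ± 31.1 CPM in the erythroid set, at 6.97 ± 1.95 in the megakaryocyte set and at 9.21 ± 0.945 in the granulocyte set. Mki67 was at 783 ± 35.8, 743 ± 96.5 and 534 ± 50.9 in that order, so the megakaryocyte set overlapped the erythroid one in Mki67 and not in Ccne1. Ly6a was low in the granulocyte set too, at 9.81 ± 1.2, beside 7.48 ± 5.74.

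The reporter gate was not used by the rule, so the set can be compared between gates. The question is whether cells marked through Tppp3 shortly after birth held erythroid progenitors as often as unmarked cells. The set made up 23 of 3900 cells (0.590%, 95% exact interval 0.374 to 0.884) in mouse 1 positive and 73 of 12762 (0.572%, 0.449 to 0.719) in mouse 1 negative. In mouse 2 it made up 24 of 3945 (0.608%, 0.390 to 0.904) in positive and 109 of 12435 (0.877%, 0.720 to 1.06) in negative. The 2 positive fractions lay between the 2 negative ones. Mouse 2 negative was the highest, with an interval that overlapped those of both positive fractions. The log2 ratio of positive over negative was 0.04 in mouse 1 and -0.53 in mouse 2, a mean of -0.24, with a 2-sided exact permutation p of 1 (the smallest that 2 against 2 fractions can give is 0.333). This design could not reach 0.05, so the p does not show that the shares were alike. With at least 4 rule genes the log2 ratios were -0.29 and -0.99, and after thinning -0.11 and -0.72, so positive lay below negative in both mice under these 2 settings.

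The make-up of the set by rule genes differed more between gates. This comparison was chosen after the data were seen. Cells with 3 or 4 rule genes were 10 of 23 set cells (43.5%) in mouse 1 positive, 17 of 73 (23.3%) in mouse 1 negative, 10 of 24 (41.7%) in mouse 2 positive and 12 of 109 (11%) in mouse 2 negative. Both positive fractions were above both negative ones, by a mean of 25.4 percentage points, and the exact permutation p was 0.333, the smallest possible here. Cells with all 7 rule genes were 43.5%, 52.1%, 37.5% and 78.0%, a mean of positive minus negative of -24.5 points. After thinning to 5000 UMIs this turned to 4.65 points, with 15.5% in positive and 10.8% in negative fractions, and was above 0 in both mice. Thinning left only 2, 3, 3 and 16 cells with all 7 rule genes. Cells with 5 or 6 were then 37.6% of the set in positive and 63.5% in negative fractions. That was a difference of -25.9 points (-20.7 in mouse 1 and -31.0 in mouse 2). Cells with 3 or 4, with 5 or 6 and with 7 rule genes together make up the whole set. The -25.9 points are therefore fixed by the differences for 3 or 4 and for 7, and are not separate evidence. As a share of all cells, those with 3 or 4 were 0.256%, 0.133%, 0.253% and 0.0965%. The difference in the share of set cells with 3 or 4 was 21.2 points after thinning to 5000 UMIs and 14.5 points in GEM-X alone, where it was 2.56 points in mouse 1. It was 38.1 points in v3.1 alone. The median depth of the set was 20265 and 19026.5 UMIs in the positive fractions, below 28048 and 34678 in the negative ones, and the part of depth in the make-up was not tested beyond thinning.

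**Figure D4:**
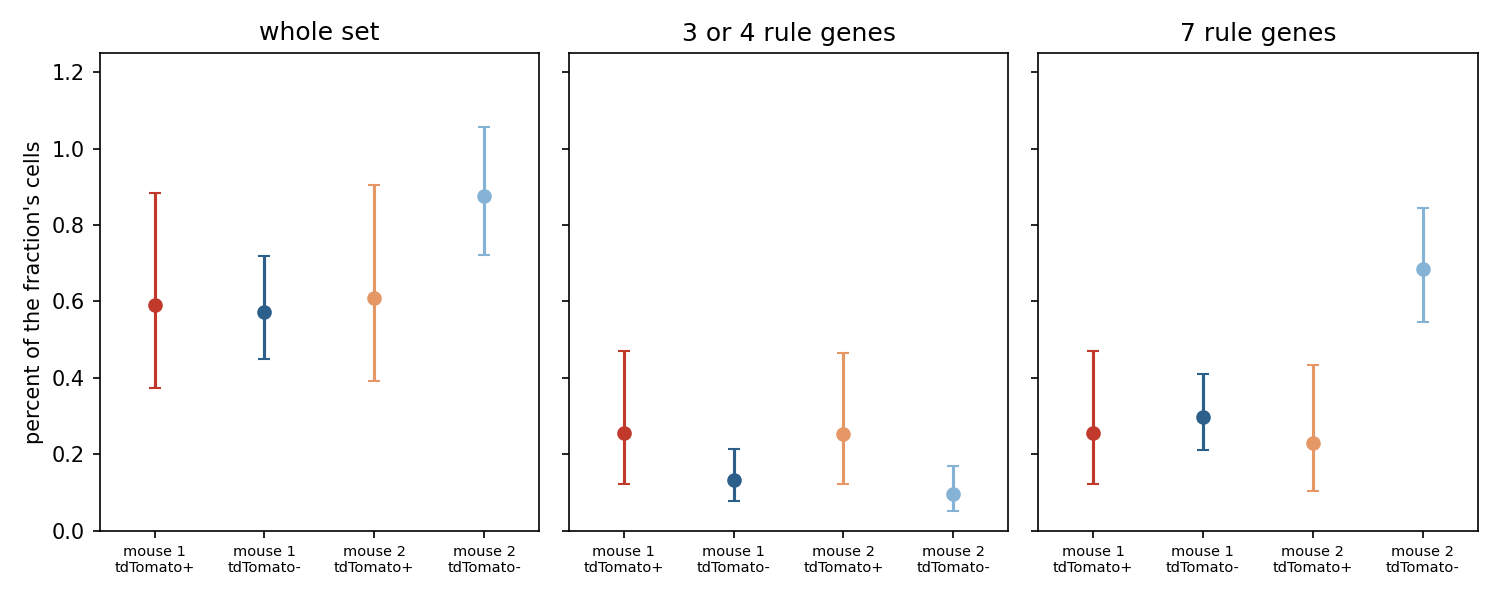
Percent of each fraction's cells in the whole set, with 3 or 4 rule genes and with 7; points are single fractions and bars are 95% exact binomial intervals, which cover counting error only. The whole set is highest in mouse 2 negative (0.877%), and cells with 3 or 4 rule genes are highest in both positive fractions (0.256% and 0.253%).

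Between gates, 1 of 8837 genes differed within the set (0.0113%; edgeR quasi-likelihood test with mouse as a block, Benjamini-Hochberg adjusted p under 0.05), and 257 did at an unadjusted p under 0.05. DESeq2 also called 1 gene, and 37 at an unadjusted p under 0.05. The gene was Hbb-bs, which had a log2 difference of positive minus negative of -2.05 ± 0.18 (SE; edgeR adjusted p = 0.0179). It was lower in positive than in negative cells in both mice (-2.15 and -1.87 from the CPM above). A UMI of Hbb-bs was found in 6 of 23, 24 of 73, 4 of 24 and 57 of 109 cells. In the same order, the richest cell held 39 of 82, 482 of 1275, 18 of 28 and 101 of 685 Hbb-bs UMIs. Without the richest cell of each fraction the CPM difference was -2.35 in mouse 1 and -3.02 in mouse 2. In both mice this took a larger part of the UMIs from positive than from negative cells. It could therefore not show that the difference is free of single cells. Hba-a1, an adult alpha-globin gene, had differences of -1.59 and -0.78 in the 2 mice, with an edgeR adjusted p of 1. The fit had 1 residual degree of freedom among samples. Without mouse 1 positive, or without mouse 2 positive, 0 genes passed, and without mouse 1 negative 328 did. Without the block 0 passed, with 191 at an unadjusted p under 0.05.

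No list gene other than Hbb-bs passed between gates. The haem list had a median log2 difference of -0.30, with 14 of 16 genes below 0, and iron of -0.20, with 10 of 13 below 0. Globins had a median of -1.86 (4 of 4 below 0) and membrane and cytoskeleton genes of -0.20 (15 of 21). Early erythroid genes lay at -0.06 (12 of 20), erythroid transcription factors at 0.04 (11 of 26) and erythropoietin signalling at 0.07 (3 of 6). All genes had a median of -0.002. Megakaryocyte genes lay at a median of 1.09 with 0 of 6 below 0, Itga2b at 1.04 ± 0.51 (SE) and Cd9 at 1.42. The stem cell list lay at a median of 0.23, with 3 of 9 below 0. Its member Meis1 was at 1.12 ± 0.33, and from CPM at 0.38 in mouse 1 and 2.04 in mouse 2. None of these genes passed the test (edgeR adjusted p = 1). The share of cells with 3 or 4 rule genes, given above, moved with the gate in the same 4 fractions; its part in these values was not tested. Where only cells with all 7 rule genes were kept, 7 genes passed, Hbb-bs among them. In data simulated for the 8837 genes of this comparison, 71% of 2-fold changes and 100% of 4-fold changes were recovered, with 11 false calls. The 200 changed genes were drawn from those at or above the median count, and no difference between mice was built in. The recovery of changes in less counted genes, or in the real fractions, is therefore not given by these shares.

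Between chemistries the share of the set had 4 paired ratios of GEM-X over v3.1 of -0.19, -0.13, 0.18 and 0.27 (log2, in the order of fractions above), a mean of 0.03. The exact sign-flip permutation p was 0.875, where 0.125 is the smallest that 4 pairs allow. GEM-X gave 130 set cells at a median of 29379 UMIs and v3.1 gave 99 at 32524. Which matrix belongs to which chemistry was read from the matrix names.

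Levels within the set differed between chemistries at 1755 of 8157 genes (21.5%), 977 higher in GEM-X (12.0%) and 778 lower (9.54%). The test was edgeR with fraction as a block and an adjusted p under 0.05. Each chemistry was a single library with its own Cell Ranger version, so chemistry cannot be told apart from library or version. The p-values measure the spread between fractions, not between libraries. Lars2, a mitochondrial leucyl-tRNA synthetase, was at 544, 476, 441 and 409 CPM in GEM-X and at 20.2, 39.9, 21.9 and 42.5 in v3.1, a log2 difference of 3.62 ± 0.14 (edgeR adjusted p = 2.56e-20). The chemistries did not overlap in any fraction. Camk1d, a calcium-dependent kinase, had 3.43 ± 0.16 (edgeR adjusted p = 3.93e-18). Mecom, a stem cell factor, was at 14.2, 35.9, 8.32 and 8.51 CPM in GEM-X and at 135, 170, 38.3 and 29.4 in v3.1 (-2.19 ± 0.21; edgeR adjusted p = 1.32e-09).

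Of the 7 rule genes, 1 differed: Ermap was higher in GEM-X by 0.48 ± 0.09 (edgeR adjusted p = 0.000198). Klf1 had -0.28 ± 0.11 (adjusted p = 0.0593) and Car1 -0.03 ± 0.06. Of 22 genes of G2 and M phase, 10 were higher in GEM-X and 0 lower, with Mki67 at 1.28 ± 0.08 (edgeR adjusted p = 2.16e-14). Of 13 ribosome biogenesis genes tested, 8 were higher and 0 lower, while 6 of 15 glycolysis genes were lower and 1 higher, and the mitochondrially encoded genes split, 5 higher and 5 lower of 13. Among stem cell genes 5 of 8 were lower in GEM-X. Of the 20 early erythroid genes tested, 6 were higher, Car2 among them (0.65 ± 0.05), and 4 lower. Among erythroid factors, Gfi1b had a log2 difference of -0.69 ± 0.12, and Fth1, from the iron list, -0.64 ± 0.05 (edgeR adjusted p = 6.27e-05 and 7.03e-13).

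The gate difference itself was tested between chemistries, and 1 of 8157 genes differed in it (0.0123%; edgeR gate by chemistry term, adjusted p under 0.05), with 412 at an unadjusted p under 0.05; DESeq2 called 0, with 31 at an unadjusted p under 0.05. No erythroid list gene was called there. For Hbb-bs the term was therefore not past the threshold, which does not show that its gate difference was alike in both chemistries.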

How the data were processed

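Both matrices hold raw UMI counts per gene and hashtag for barcodes already called as cells, and the file headers name Cell Ranger 8.0.1 for GEM-X and version 7.1.0 for the other; the submitters' processing notes name Cell Ranger 7.0.0 and mm10. Whether counting used strand is not stated in the headers or labels. The chemistry of each matrix was inferred from its name and header version. Hashtags were assigned to mouse and gate from the deposited hashtag table.

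From these deposited counts, UMIs of the set and of the other cells were summed per fraction (mouse by gate). CPM divides by the summed gene UMIs. Genes between gates and chemistries were tested with edgeR 4.0.16 (quasi-likelihood, filterByExpr, TMM, Benjamini-Hochberg, threshold 0.05), with mouse or fraction as a block, since both gates of a mouse come from 1 animal and both chemistries from 1 fraction. Shares were tested with exact permutations. The same steps were tested on simulated data. DESeq2 1.42.0 and Scrublet in scanpy 1.11.5 were alternatives, with R 4.3.3 and Python 3.11.15. Gene positions come from the GENCODE annotation of mm10, which held 99.8% of the 32285 genes, and promoters from RefSeq (GRCm38.p6).

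The rule failed 371 (GEM-X) and 1034 (v3.1) barcodes on genes or mitochondrial share and 1846 and 1973 on hashtags. Named genes were the rule genes, members of the erythroid lists, up to 6 of each other list by level, and up to 15 further genes each way by their smallest ratio, or 10 each way by fold between gates or chemistries past 0.05; near-identical families and unnamed models were skipped there. Hbb-bs, which has a near-identical copy, is named as a member of the globin list. The set, the lists and the tests were chosen with earlier results of these data known. Alternatives were RLE factors, DESeq2, no filter, no block, other rule thresholds, a stricter hashtag ratio of 5, no Scrublet calls, thinning, each chemistry alone and leaving out each fraction. A few genes that the naming rule covers are not reported here.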

Additional observations from a re-analysis of the deposited data

Results flagged for a closer look

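Among cells that passed on genes and mitochondrial share but carried no single hashtag, and so entered no comparison, 32 of 3819 met the gene rule (0.838%, 95% exact interval 0.574 to 1.18). A count of 0 would have allowed up to 0.0786%. They were 14 cells (0.758%) in GEM-X and 18 (0.912%) in v3.1, against 0.711% and 0.671% of cells with a single hashtag.

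The gate difference of 1 gene within the set was unlike in the chemistries. Gm42418, an unnamed gene model named here after its value was seen, had a positive-minus-negative log2 difference larger in GEM-X than in v3.1 by 0.87 ± 0.15 (SE; edgeR adjusted p = 0.0473 for the gate by chemistry term). It was 1 of 8157 genes (0.0123%), and 412 had an unadjusted p under 0.05.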

How the results depend on the processing

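The share of the set between gates, -0.24 (log2) as reported, was -0.64 with at least 4 rule genes, -0.42 after thinning, -0.15 with at least 2 rule genes, -0.53 in mouse 2 alone, 0.044 in mouse 1 alone, 0.066 without mouse 2 negative, and between -0.55 and 0.066 over the 4 fits that each left out 1 fraction. Between chemistries the share, 0.03, was 0.23 with at least 4 rule genes, 0.15 at a hashtag ratio of 5, -0.017 after thinning, -0.10 with at least 2 rule genes, -0.035 without Scrublet calls, and between -0.046 and 0.11 with 1 fraction left out.

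Genes called between gates, 1 as reported, numbered 31 without the filter, 60 without Scrublet calls, 45 in GEM-X alone, 8 in v3.1 alone and 7 with all 7 rule genes, an alternative chosen after seeing the data; with 1 fraction left out they ranged from 0 to 328. Without the replicate block the count between gates was 0 and between chemistries 699, and the share between gates was -0.27. Genes between chemistries, 1755, numbered 499 with DESeq2 and 625 to 1710 with 1 fraction left out (lowest without mouse 2 negative, 1142 without mouse 1 negative). The gate by chemistry term called 4 genes without the filter and 0 with DESeq2 (31 at an unadjusted p under 0.05), against 1.

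Genes lower in the set, 1436, numbered 844 in v3.1 alone and 904 with other cells weighted to the set's depth; Ube2c turned from 1.40 to -0.24 there. The cause was not tested in any of these. The 437 genes higher in the set ranged from 353 to 501. For 147 listed or ranked genes past the fold, 726 log2 ratios were computed under alternatives. Of these, 602 lay within the gene's SD over fractions of the reported ratio, 123 moved by at least that SD and 1 changed sign. The make-up by rule genes between gates was also computed without each fraction and under other settings, chosen after seeing the data, and kept its direction for cells with 3 or 4 rule genes. For cells with 7 the share of the set turned from -24.5 to 4.65 points after thinning, and for cells with 5 or 6 it went from -0.89 to -25.9. Of 25 groups of 4 values checked for 1 far from the others, 0 stood out, where chance gives about 1 in 20. Depth limits rare transcripts: the positive fractions held 23 and 24 set cells.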
